A study of Homo sapiens with 6 samples.

Results

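The 8 genes described here were chosen as regulators of the antioxidant response, not as its targets. Whether any of them is also a target was not tested. NFE2L2 encodes the transcription factor NRF2, and NFE2L1 its relative NRF1. KEAP1 and CUL3 encode the adaptor and the scaffold of the ubiquitin ligase that binds NRF2. BACH1 encodes a repressor, and MAFF, MAFG and MAFK encode the small MAF proteins. The members were fixed by gene symbol, and each of the 8 matched 1 row of the 23858 genes in the deposited table. The cells were NB4, a human line from acute promyelocytic leukaemia that carries the PML-RARA fusion. One group of 3 libraries came from NB4 cells given arsenic trioxide for 6 h, and the other group of 3 came from control NB4 cells. The sources used here give neither the dose nor whether replicates of a group were separate cultures. The p-values therefore measure only the spread between these libraries, which may be technical.

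KEAP1 holds NRF2 in the cytoplasm of unstressed cells and presents it to a ligase built on CUL3, which marks it for the proteasome. Electrophiles and trivalent arsenic modify KEAP1 cysteines, after which newly made NRF2 accumulates and enters the nucleus. NRF2, NRF1 and BACH1 bind antioxidant response elements only as heterodimers with a small MAF protein, and small MAFs have no activation domain of their own. BACH1 represses the same elements until haem or oxidants displace it, and its best known target is the haem oxygenase gene HMOX1. Much of this control acts on protein stability and location, which RNA does not show, and no protein was measured here.

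Expression was read as RPKM, the reads of a gene per length of its exons and per counted read of that library. The length is that of all annotated exons of the gene merged, used in these cells or not. Comparisons of level between genes, and ratios and sums over genes, depend on it. The steps between RPKM values imply about 19361330 to 22609025 counted reads per library. The lowest count behind any value of the 8 genes was 46 reads, for MAFF in a control library. On the second principal component of all tested genes (15.2% of the variance), arsenic trioxide replicate 3 (23.0) and control replicate 1 (21.3) stood apart from the other 4 libraries (-14.8 to -6.85). Results are therefore also given without these 2 libraries, a setting chosen after the data were seen. The promyelocyte markers MPO, AZU1, PRTN3, CTSG and CD33 were all present, with MPO at 540 to 780 RPKM in arsenic trioxide libraries and 808 to 1071 RPKM in control libraries. Their summed level was 666 to 1006 RPKM in arsenic trioxide libraries and 998 to 1389 RPKM in control libraries. ELANE, the remaining marker of that list, was not analysed here. AZU1 was called lower. Of the T cell, erythroid and epithelial markers, 1, 1 and 2 of 4 each were listed, with summed levels per library of at most 4.22, 0.387 and 7.12 RPKM. The part of these markers in the results was not tested. In such bulk RNA, fewer cells of a type and less RNA per cell cannot be told apart.

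Arsenic trioxide libraries had more MAFG and MAFF RNA, and smaller rises were called for NFE2L1 and BACH1. NFE2L2 itself, KEAP1 and CUL3 were not called, and MAFK was lower with an adjusted p just above the threshold. The test was limma-trend on log2(RPKM + 1) over 16803 genes, with a Benjamini-Hochberg adjusted p under 0.05 as a call. It called 25.4% of all tested genes. Of the 8 regulators, chosen with earlier results of these data known, it called 4 higher, where 12.0% of all tested genes were called higher. It called 0 of the 8 lower, against 13.4% of all tested genes. With no adjustment of limma's p, 1 was lower (MAFK), against 20.3% of all tested genes, and limma-voom on recovered reads called that 1 as well, against 16.2%. The 2 groups of libraries did not overlap for 5 of the 8, 4 higher and 1 lower, against 44.6% of all tested genes. The median log2 fold change of the 8 was 0.24, and that of all tested genes was -0.0033. All 8 passed the filter of a mean of 1 RPKM over the 6 libraries, MAFF only through its level in the arsenic trioxide libraries.

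**Figure D1:**
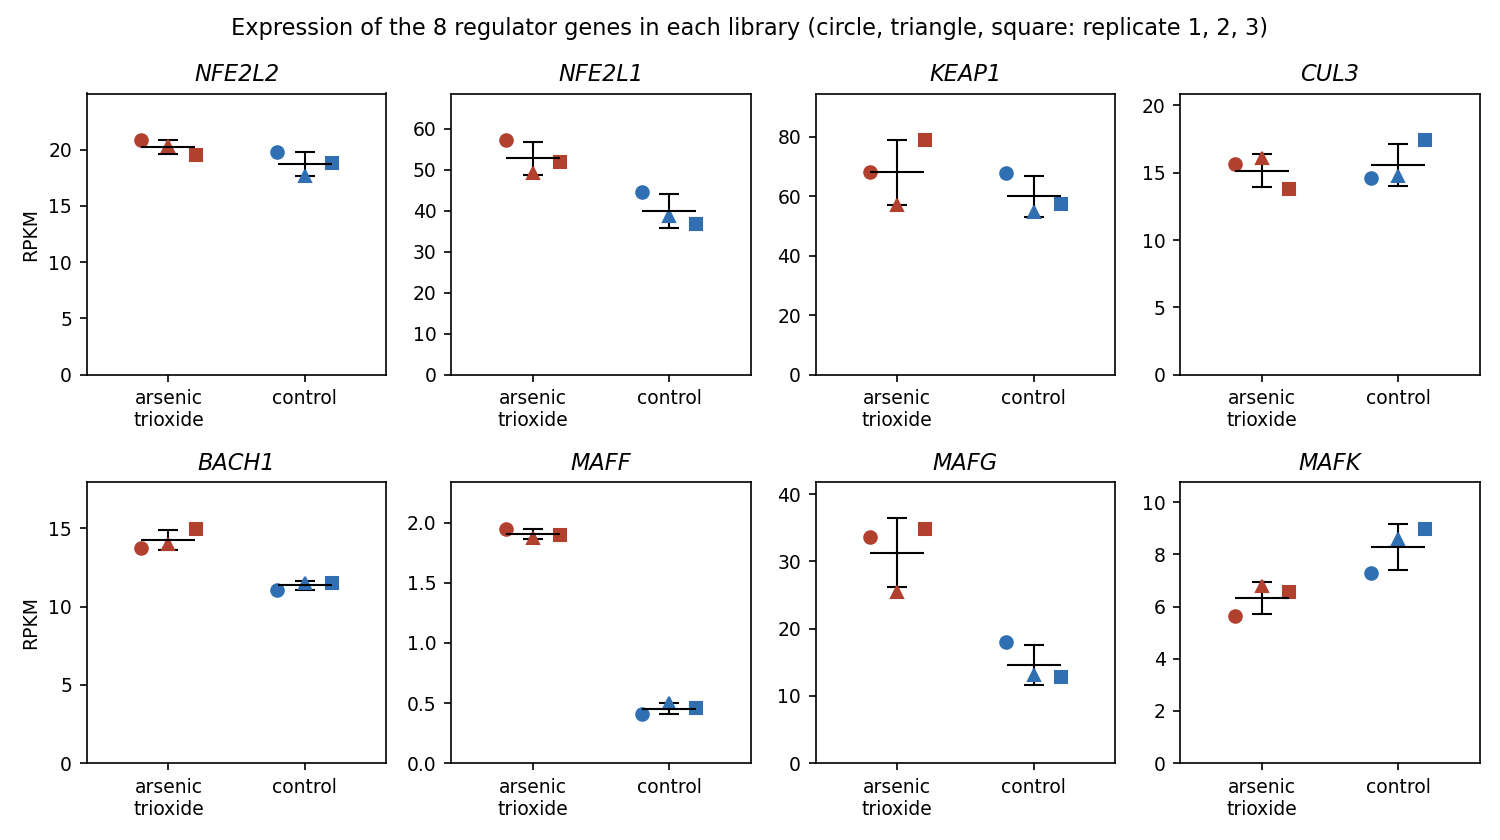
RPKM of the 8 regulators in each library (y axis from 0, its own scale per gene), arsenic trioxide on the left and control on the right, with the group mean and SD as black bars. MAFF, MAFG, NFE2L1 and BACH1 lie wholly above their controls, MAFK lies wholly below, and NFE2L2, KEAP1 and CUL3 overlap.

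The adaptor and scaffold of the ligase were not called. KEAP1, which senses electrophiles through reactive cysteines (chromosome 19, 10486120 to 10503741, GRCh38, minus strand), was at 68.1, 57.1 and 78.7 RPKM in treated libraries 1, 2 and 3. In control replicates 1, 2 and 3 it was at 67.7, 54.8 and 57.2 RPKM. The groups overlapped, and the highest value of each group came from the library that stood apart on the second principal component. Its log2 fold change was 0.17 with a 95% interval of -0.13 to 0.48 (limma-trend adjusted p = 0.364), an interval that includes 0. CUL3, the cullin that joins KEAP1 to the ubiquitin-loading machinery (chromosome 2, 224470150 to 224585397, minus strand), was at 15.6, 16.1 and 13.8 RPKM in the arsenic trioxide libraries. In the control libraries it was at 14.6, 14.8 and 17.4 RPKM. These values also overlapped, with a log2 fold change of -0.04 (95% interval -0.26 to 0.19, limma-trend adjusted p = 0.801), and the sign turned without arsenic trioxide replicate 3 (0.03) or control replicate 3 (0.04).

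NFE2L2, the gene of the main electrophile-responsive activator, was not called. It was at 20.8, 20.3 and 19.5 RPKM in the treated replicates 1, 2 and 3, against 19.7, 17.6 and 18.8 RPKM in the controls (chromosome 2, 177227595 to 177392697, minus strand). The lowest arsenic trioxide value lay below the highest control value. The mean was 20.2 ± 0.654 RPKM in arsenic trioxide and 18.7 ± 1.06 RPKM in control libraries (SD, n = 3 each), a ratio of 1.08. The log2 fold change was 0.11 with a 95% interval of -0.05 to 0.26 (limma-trend adjusted p = 0.27), and the call did not change in any of the 13 other settings. Between 2040 and 2775 reads per library stood behind these values.

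NFE2L1, which encodes a factor held in the endoplasmic reticulum membrane and known for inducing proteasome genes, rose (chromosome 17, 48048329 to 48061487, plus strand). It was at 57.2, 49.3 and 52 RPKM in the treated libraries, against 44.6, 38.7 and 36.7 RPKM in the control libraries. Every arsenic trioxide library lay above every control library. The means were 52.8 ± 3.99 RPKM in arsenic trioxide and 40.0 ± 4.12 RPKM in control libraries (SD, n = 3 each), a ratio of 1.32. On the log2 scale it rose by 0.39 ± 0.09 SE (adjusted p = 0.0198 by limma-trend). The call was lost without arsenic trioxide replicate 1 (adjusted p = 0.061), control replicate 2 (0.0638) or control replicate 3 (0.061), and it held without the 2 libraries that stood apart (0.0321).

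BACH1, the haem-sensitive repressor, also rose, in the same direction as the activator NFE2L1 (chromosome 21, 29194071 to 29630751, plus strand). It was at 13.8, 14.0 and 15.0 RPKM in the arsenic trioxide libraries, against 11.0, 11.5 and 11.5 RPKM in the control libraries. The groups were 2.25 RPKM apart at their nearest values. The means were 14.3 ± 0.632 RPKM in arsenic trioxide and 11.4 ± 0.275 RPKM in control libraries (SD, n = 3 each), a ratio of 1.25. On the log2 scale it rose by 0.30 ± 0.07 SE (adjusted p = 0.0175 by limma-trend). Leaving out any 1 control library ended the call, with adjusted p-values of 0.0505, 0.0501 and 0.0535 for control replicates 1, 2 and 3. Without the 2 libraries that stood apart the adjusted p was 0.0793 and the log2 fold change 0.25.

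The 3 small MAF genes did not move together. MAFG (chromosome 17, 81918270 to 81927714, minus strand) was at 33.6, 25.5 and 34.9 RPKM in the treated libraries, against 18, 13.1 and 12.7 RPKM in the control libraries. The lowest arsenic trioxide library was 7.50 RPKM above the highest control library, which was one of the libraries that stood apart. MAFG rose to 31.3 ± 5.06 RPKM in arsenic trioxide, against 14.6 ± 2.95 RPKM in control libraries (SD, n = 3 each), a ratio of 2.14. Its log2 fold change came to 1.05 ± 0.16 SE (limma-trend adjusted p = 0.0052), rank 339 from the largest rise among the tested genes, and it was called in all 13 other settings. Without the 2 libraries that stood apart it was 1.12 (adjusted p = 0.0161).

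MAFF, the small MAF known as an inducible gene, was the least abundant member and had the largest ratio (chromosome 22, 38200767 to 38216511, plus strand). It was at 1.95, 1.87 and 1.90 RPKM in the arsenic trioxide libraries, from 244, 223 and 234 reads, against 0.406, 0.497 and 0.457 RPKM in the control libraries, from 46, 54 and 58 reads. The spread within a group was small beside the distance between the groups. MAFF rose to 1.91 ± 0.0381 RPKM in arsenic trioxide, against 0.453 ± 0.0457 RPKM in control libraries (SD, n = 3 each), a ratio of 4.21. The log2 fold change of RPKM + 1 was 1.00 ± 0.12 SE (limma-trend adjusted p = 0.0024), and the added 1 RPKM shrinks it. It was 1.86 with 0.1 RPKM added, 0.34 with 5 added and 2.07 with limma-voom, and MAFF was called in all 13 other settings.

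MAFK (chromosome 7, 1530714 to 1543043, plus strand) was at 5.65, 6.79 and 6.55 RPKM in the arsenic trioxide libraries, against 7.28, 8.61 and 8.98 RPKM in the control libraries. Every arsenic trioxide library lay below every control library. The means were 6.33 ± 0.599 RPKM in arsenic trioxide and 8.29 ± 0.891 RPKM in control libraries (SD, n = 3 each), a ratio of 0.764. The log2 fold change was -0.34 with a 95% interval of -0.60 to -0.08 (limma-trend adjusted p = 0.0624). MAFK was called lower by limma-voom (adjusted p = 0.0256) and without control replicate 1 (0.0469). The limma-trend adjusted p rose to 0.165 without arsenic trioxide replicate 1, 0.158 without control replicate 2 and 0.178 without control replicate 3.

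**Figure D2:**
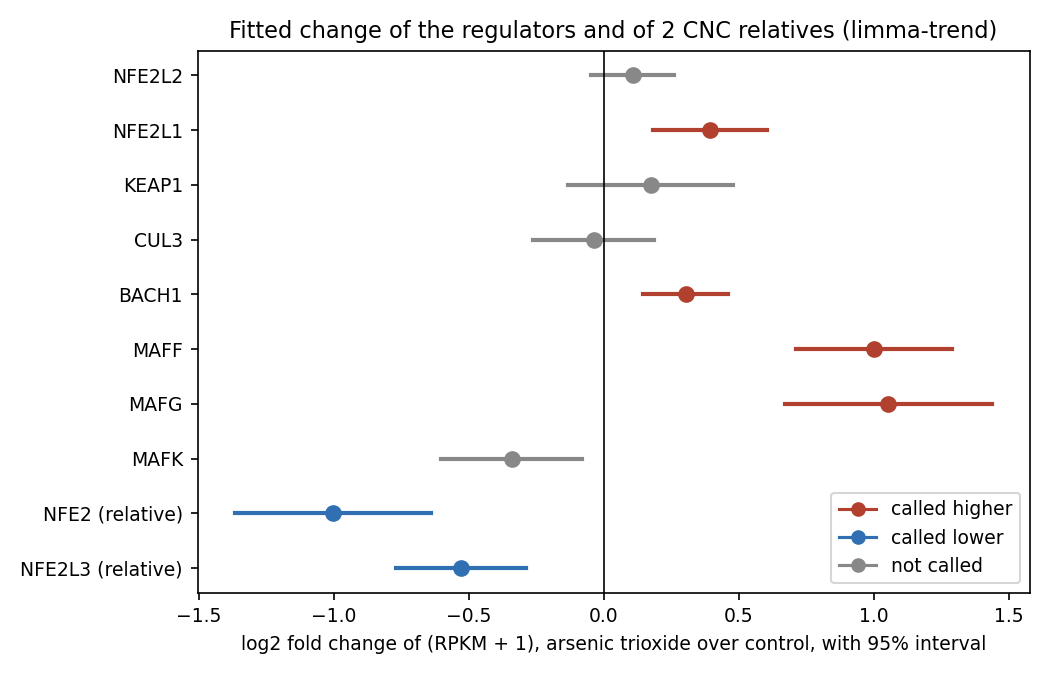
Log2 fold change of (RPKM + 1), arsenic trioxide over control (x axis), with its 95% interval for the 8 regulators and for NFE2 and NFE2L3, 2 relatives of NRF2. The intervals of MAFG and MAFF begin at 0.67 and 0.71, and those of NFE2L2, KEAP1 and CUL3 include 0.

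Of the 8 regulators, 5 have, in the authors' deposited table, adjusted p-values under 0.05, against 25.3% of the 23393 genes with an adjusted p there. Log2 fold changes in the authors' deposited table are 2.06 for MAFF, 1.08 for MAFG, 0.39 for NFE2L1, 0.31 for BACH1 and -0.40 for MAFK. For MAFK the authors' deposited table gives an adjusted p of 0.00827. NFE2L2, KEAP1 and CUL3 have adjusted p-values of 0.564, 0.39 and 0.786 in the authors' deposited table.

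The small MAF transcripts were summed in each library, since the 3 proteins are thought to substitute for one another as partners. Their sum was 41.2, 34.2 and 43.3 RPKM in the treated libraries, against 25.7, 22.2 and 22.2 RPKM in the controls. The groups did not overlap. MAFG made up 74.7% to 81.6% of the sum in arsenic trioxide libraries and 57.5% to 70.1% in control libraries. MAFK made up 13.7% to 19.9% in arsenic trioxide libraries and 28.3% to 40.5% in control libraries. MAFF stayed a minor part, 4.38% to 5.48% in arsenic trioxide and 1.58% to 2.24% in control libraries. Relative to NFE2L2, the small MAF sum was 1.68 to 2.22 in arsenic trioxide libraries and 1.18 to 1.30 in control libraries. The ratio of BACH1 to NFE2L2 was 0.662 to 0.767 in arsenic trioxide libraries and 0.56 to 0.653 in control libraries.

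**Figure D3:**
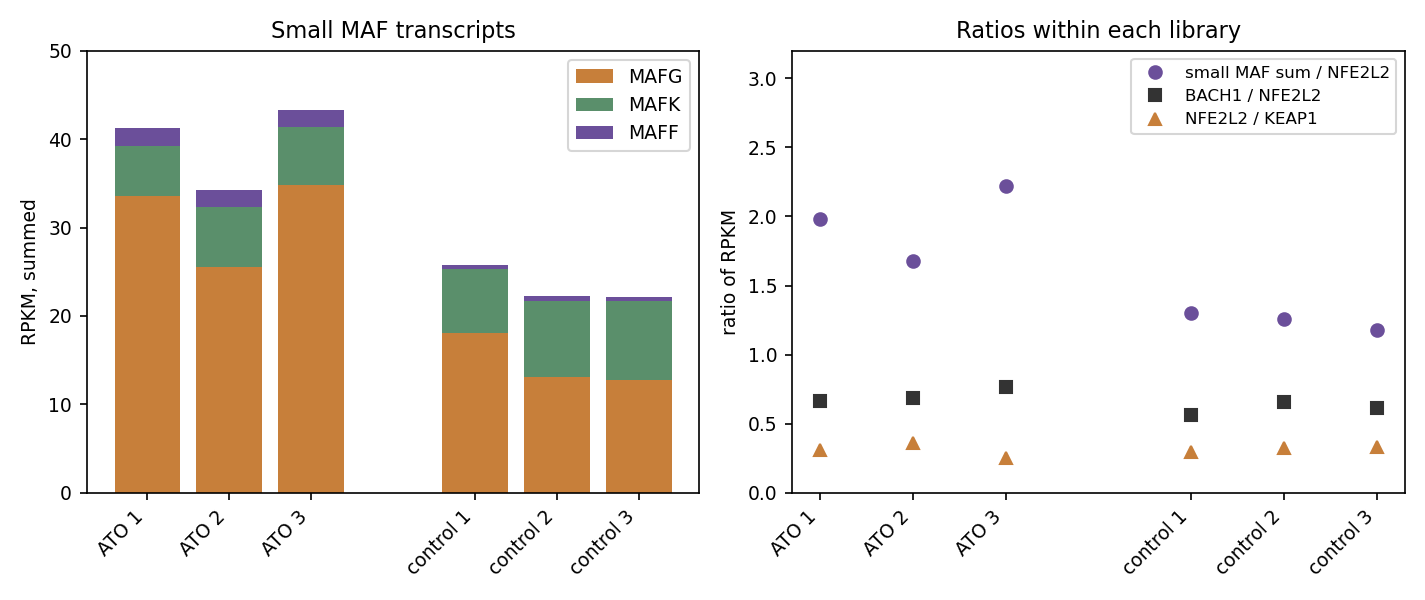
Left, RPKM of MAFG, MAFK and MAFF stacked for each library. Right, ratios of RPKM within each library. The small MAF sum is 34.2 to 43.3 RPKM in arsenic trioxide (ATO) and 22.2 to 25.7 RPKM in control libraries, and the ratio of NFE2L2 to KEAP1 overlaps between the groups.

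Whether 2 members changed unequally was asked with the log2 ratio of their RPKM + 0.1 in each library, for 6 pairs, in an exact two-sided permutation test over 20 assignments. The smallest p this design can give is 0.1, so no pair can pass 0.05. MAFG relative to MAFK had a mean log2 ratio of 2.28 ± 0.34 in arsenic trioxide and 0.80 ± 0.43 in control libraries (SD, n = 3 each), a difference of 1.48 (exact p = 0.1, adjusted p = 0.12 over the 6 pairs). MAFF relative to MAFK was at -1.68 ± 0.16 in arsenic trioxide and -3.92 ± 0.09 in control libraries, a difference of 2.24 (exact p = 0.1, adjusted p = 0.12). MAFF relative to MAFG differed by 0.76 between the groups (exact p = 0.1, adjusted p = 0.12), but by -0.0521 with 1 RPKM added, so the order of these 2 rises depends on the scale. NFE2L2 relative to BACH1 differed by -0.21 and relative to NFE2L1 by -0.29 (both exact p = 0.1, adjusted p = 0.12). Each of these 5 log2 ratios lay apart in the 2 groups of libraries, which the exact p of 0.1 already implies. For NFE2L2 relative to BACH1 the nearest values were 0.592 in arsenic trioxide and 0.610 in control libraries. NFE2L2 relative to KEAP1 was at -1.73 ± 0.26 in arsenic trioxide and -1.67 ± 0.09 in control libraries (exact p = 0.8, adjusted p = 0.8), and overlapped.

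In order of RPKM, the arsenic trioxide libraries had KEAP1 (68.0), NFE2L1 (52.8), MAFG (31.3), NFE2L2 (20.2), CUL3 (15.2), BACH1 (14.3), MAFK (6.33) and MAFF (1.91). The control libraries had KEAP1 (59.9), NFE2L1 (40.0), NFE2L2 (18.7), CUL3 (15.6), MAFG (14.6), BACH1 (11.4), MAFK (8.29) and MAFF (0.453). MAFG thus stood above NFE2L2 in every arsenic trioxide library and below it in every control library. Neighbours whose ranges overlapped were KEAP1 with NFE2L1 and CUL3 with BACH1 in arsenic trioxide libraries, and CUL3 with MAFG in control libraries. By mean RPKM among all listed genes, KEAP1 lay at percentile 97.9, NFE2L2 at percentile 88.3 and MAFF at percentile 32.4.

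RefSeq's promoter table (GRCh38.p14) held start sites for 7 of the 8 genes, in 14 windows, and the 250 bases upstream of each start were searched on both strands. The motifs were the core of the antioxidant response element (TGACNNNGC), the AP-1 and NF-E2 core (TGANTCA), the cAMP response element (TGACGTCA), a composite core bound by ATF4 and C/EBP proteins (TGATGNAA), a pair of heat shock units (GAANNTTC) and the E-box (CACGTG). The AP-1 core with C as its variable base is also an antioxidant core when GC follows it. The antioxidant core occurred upstream of MAFF and, in 2 copies, of KEAP1. It occurs in 10.9% of all 35116 windows and, counted by gene, upstream of 13.2% of the 27305 genes with a window. The cAMP response element occurred upstream of MAFF, at bases 54 to 47 before the start. It occurs in 1.65% of all windows and upstream of 2.03% of those genes. BACH1 held the AP-1 core (6.57% of windows, 8.06% of genes), and MAFF and MAFG held the E-box (6.34% of windows, 7.73% of genes). No window of NFE2L2, NFE2L1 or CUL3 held any of the 6 motifs, and none of the 14 windows held the ATF4 or heat shock letters (3.14% and 5.78% of all windows). These are matches of letters, not measured binding. The stretches with the matches, except those with the E-box of MAFF, are shown 5′ to 3′ on the gene's strand, with the motif in capitals.
MAFF cAMP response element, chr22:38201930-38201957, plus strand, within an annotated exon: gccgggtcggTGACGTCAccgcatgact
MAFF antioxidant core, chr22:38201862-38201890, plus strand, within an annotated exon: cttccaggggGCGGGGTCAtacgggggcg
KEAP1 antioxidant core, chr19:10502807-10502835, minus strand, within an annotated exon: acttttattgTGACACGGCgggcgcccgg
KEAP1 antioxidant core, second copy, chr19:10502784-10502812, minus strand, within an annotated exon: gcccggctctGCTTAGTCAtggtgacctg
BACH1 AP-1 core, chr21:29298864-29298890, plus strand, partly within an annotated exon: gcggaaggagTGAGTCAcctgaccgct
MAFG upstream 250 bases with the E-box, chr17:81927736-81927985, minus strand, outside annotated exons of MAFG: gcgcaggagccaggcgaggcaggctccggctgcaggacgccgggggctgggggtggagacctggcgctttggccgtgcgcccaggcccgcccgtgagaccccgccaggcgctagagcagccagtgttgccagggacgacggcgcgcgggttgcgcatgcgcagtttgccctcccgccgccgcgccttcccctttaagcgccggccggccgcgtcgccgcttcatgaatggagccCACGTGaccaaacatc

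Of the relatives outside the 8 genes, NFE2 and NFE2L3 could be tested, and both fell. NFE2, which encodes the p45 subunit of NF-E2 in blood cells, was at 4.2, 5.33 and 3.91 RPKM in the arsenic trioxide libraries, against 8.10, 10.6 and 11.3 RPKM in the control libraries. Its change was -1.0 ± 0.15 SE on the log2 scale (adjusted p = 0.00499 by limma-trend). NFE2L3, which encodes NRF3, was at 11, 11 and 9.92 RPKM in arsenic trioxide, against 13.6, 17.3 and 16.6 RPKM in control libraries. Its log2 fold change was negative as well (-0.53 ± 0.10 SE, adjusted p = 0.0114), and both genes were called in all 13 other settings. BACH2, a relative of BACH1 from lymphoid cells, was at 0.0139 to 0.0482 RPKM in arsenic trioxide and 0.0158 to 0.0354 RPKM in control libraries, below the filter. NRL was below it too, at 0.682 to 0.821 RPKM in arsenic trioxide and 0.382 to 0.652 RPKM in control libraries. MAF was not analysed here.

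The genes around the regulators were taken in 7 lists, also chosen with earlier results of these data known. The lists held 56 distinct genes, 50 of them tested. Of these, 12 were called higher and 11 lower, with a median log2 fold change of -0.01. Among all tested genes the median was -0.0033, with 12.0% higher and 13.4% lower. Of the 23 called genes, 11 kept the call without any single library and 12 lost it without at least 1, and none changed sign in any of the 13 settings. Without the 2 libraries that stood apart, 7 were called higher and 6 lower.

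The largest rise in these lists was that of SQSTM1, which encodes the autophagy receptor p62, a protein that competes with NRF2 for KEAP1. It was at 28.3, 26.1 and 46.0 RPKM in treated libraries 1, 2 and 3, against 8.72, 5.57 and 6.47 RPKM in control libraries 1, 2 and 3. The libraries that stood apart had the highest value of each group. SQSTM1 rose by 2.1 ± 0.23 SE on the log2 scale (adjusted p = 0.00175 by limma-trend, and 0.00441 without those 2 libraries). AMER1, which encodes the KEAP1-binding protein WTX, was at 8.12, 7.49 and 10.3 RPKM in arsenic trioxide, against 19.5, 16.8 and 18 RPKM in control libraries. It fell (-0.99 ± 0.12 SE, adjusted p = 0.0023). PALB2, another KEAP1 binder, also fell (-0.44, adjusted p = 0.0145), a call that was lost without control replicate 3 (0.0536). Of the 6 tested members of this list of binders, 1 rose, 2 fell and 3 were not called, against 12.0% higher and 13.4% lower of all tested genes.

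Of 16 tested genes of the machinery that works with CUL3, 0 were called higher and 2 lower, with a median log2 fold change of -0.08. Among all tested genes 12.0% were called higher and 13.4% lower. With no adjustment of limma's p, 0 of the 16 were higher and 4 lower, and limma-voom called 0 higher and 3 lower. NAE1, a subunit of the enzyme that activates NEDD8, was at -0.28 (adjusted p = 0.0228), and CAND1, which exchanges the adaptors of cullins, at -0.24 (adjusted p = 0.0179). NAE1 was not called without arsenic trioxide replicate 1 (0.0516), arsenic trioxide replicate 3 (0.0581), control replicate 2 (0.0769) or control replicate 3 (0.077), and CAND1 not without control replicate 1 (0.052), 2 (0.0569) or 3 (0.0545). The ligase subunit RBX1 was at 10.4 RPKM in arsenic trioxide and 11.3 RPKM in control libraries (adjusted p = 0.417). In the second route of NRF2 turnover, through GSK3 and the SCF ligase, 2 of 7 tested genes were called higher and 1 lower. GSK3B (0.32, adjusted p = 0.0309) and SKP1 (0.32, 0.0223) were higher and GSK3A (-0.32, 0.0412) was lower, and each of these calls was lost without at least 4 of the 6 libraries, with adjusted p-values of up to 0.0856, 0.073 and 0.111.

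Among 9 genes that process or degrade NRF1, 4 were called higher and 1 lower, with a median log2 fold change of 0.15. The shares over all tested genes were 12.0% higher and 13.4% lower. DDI2, the protease that cleaves NRF1 into its active form, fell. It was at 9.96, 10.4 and 10.6 RPKM in arsenic trioxide, against 17.6, 17.1 and 16.6 RPKM in control libraries (-0.68 ± 0.06 SE, limma-trend adjusted p = 0.00105). The groups were far apart beside their spread, and DDI2 was called in all 13 other settings. OGT, which adds N-acetylglucosamine to proteins, rose (0.50, adjusted p = 0.00823), as did its partner HCFC1 (0.35, adjusted p = 0.0062). NGLY1, the deglycosylase of NRF1, and VCP, which extracts it from the membrane, were higher (0.29 and 0.26, adjusted p = 0.0238 and 0.0316). Both lost the call without any of 5 of the 6 libraries, with adjusted p-values of up to 0.0748 and 0.0939.

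Of the 4 genes for BACH1 turnover and export, RBCK1, which encodes the HOIL-1 ubiquitin ligase, rose. It averaged 18.8 RPKM in arsenic trioxide and 11.8 RPKM in control libraries (0.63 ± 0.09 SE, limma-trend adjusted p = 0.00362). XPO1, the nuclear exporter, was lower (-0.28, adjusted p = 0.0161) and lost the call without arsenic trioxide replicate 1 (0.0534), control replicate 2 (0.0511) or control replicate 3 (0.0507). FBXO22, the F-box protein that targets haem-bound BACH1, was at 8.44 RPKM in arsenic trioxide and 9.91 RPKM in control libraries (adjusted p = 0.0975). Of 8 genes listed as cofactors of NRF2, 4 were called higher and 2 lower, against 12.0% higher and 13.4% lower of all tested genes. The list does not separate cofactors that raise NRF2 activity from those that lower it. The coactivators NCOA3 (0.69, adjusted p = 0.00145) and CREBBP (0.66, 0.00494) and the remodeller CHD6 (0.39, 0.00844) rose and were called without any single library. EP300 was higher (0.29, 0.0242), and SMARCA4 (-0.18, 0.0444) and RARA (-0.42, 0.0256) were lower, with adjusted p-values of up to 0.0776, 0.142 and 0.0753 when 1 library was left out. Reads of RARA include those of the PML-RARA fusion.

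**Figure D4:**
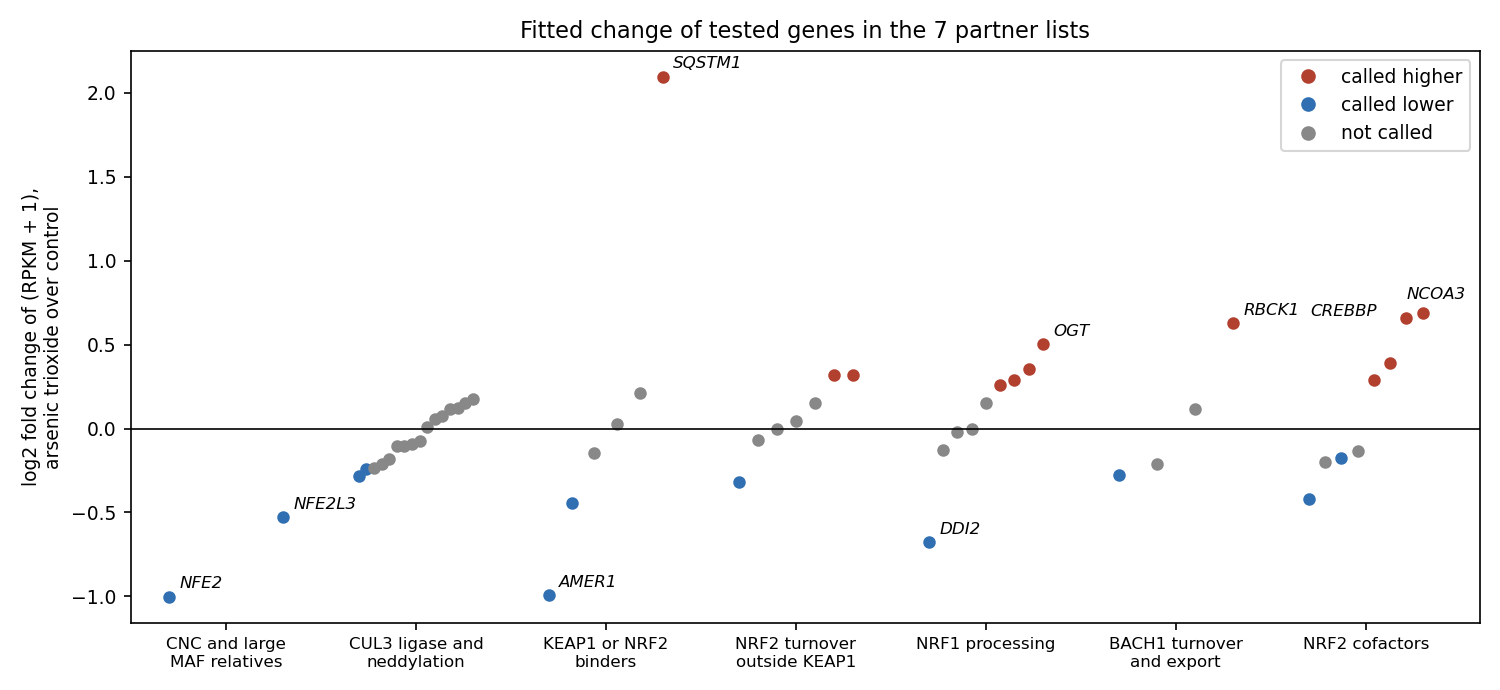
Log2 fold change of (RPKM + 1), arsenic trioxide over control (y axis), of each tested gene in the 7 lists, with called genes in colour. SQSTM1 at 2.1 lies above all others, and NFE2 at -1.0 and AMER1 at -0.99 lie lowest.

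Target genes were counted for comparison. Of 22 tested NRF2 targets 19 were called higher and 0 lower, against 12.0% higher and 13.4% lower of all tested genes, with a median log2 fold change of 0.93. The lists of NRF2 and NRF1 targets were both chosen with earlier results of these data known. HMOX1 and OSGIN1 averaged 0.954 and 0.178 RPKM in control libraries, and passed the filter only through their arsenic trioxide libraries. With no adjustment of limma's p the count lower was 0 in both target lists, as it was by limma-voom. The smallest p-values were those of HMOX1 (7.13), SLC48A1, a haem transporter (2.24), SLC7A11, the cystine importer (2.88), and GCLM, of glutathione synthesis (1.94). HMOX1, the classic target of BACH1, was at 203 to 328 RPKM in arsenic trioxide and 0.662 to 1.23 RPKM in control libraries. Of 31 proteasome genes, the best known targets of NRF1, 24 were called higher and 0 lower, with a median log2 fold change of 0.38.

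Annotated neighbours share exon bases with some of the regulators, and the RPKM values do not show from which strand the reads came. KEAP1 and MAFF share no exon base with another annotated gene. MAFK shares 18.1% of its exon bases with TMEM184A on the opposite strand, which was at 0.0575 to 0.122 RPKM in arsenic trioxide and 0.133 to 0.384 RPKM in control libraries. NFE2L2 shares 20.9%, mainly with AC074286.1, which averaged 1.55 RPKM in arsenic trioxide and 1.52 RPKM in control libraries. MAFG shares 6.30%, with SIRT7 and RP11-498C9.12. SIRT7 averaged 5.41 RPKM in arsenic trioxide and 4.67 RPKM in control libraries (adjusted p = 0.228), and RP11-498C9.12 averaged 6.20 RPKM in arsenic trioxide and 3.11 RPKM in control libraries (adjusted p = 0.0776). AGPS, which shares 54 bases with NFE2L2, was called lower, at 17.5 RPKM in arsenic trioxide and 21.1 RPKM in control libraries (adjusted p = 0.021). CTC-429L19.3, inside the span of KEAP1, had an adjusted p of 0.0505. DNAJC19P5, MIR3128, RP11-337N6.1, RP11-337N6.2, RP11-337N6.3, AC019080.1, snoU13, AC073052.1, AP000240.9 and GRIK1 also overlap a regulator and were not called, and PLA2G6 was below the filter. The RNAs named after these genes, MAFG-AS1, BACH1-AS1, BACH1-IT1, BACH1-IT2 and BACH1-IT3, were not called, with log2 fold changes of -0.15, -0.21, -0.07, -0.18 and -0.06. Their part in the values of the regulators was not tested.

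Over the 6 libraries, the genes whose log2(RPKM + 1) was most like that of MAFF were FAM129A, SEL1L3 and PLEKHM3 (Pearson's r of 0.999 each). Among those most like MAFG were E2F3 and SMOX (r of 0.995 each). These r values come from 2 groups of 3 that differ in both genes, and 1756 tested genes had an r over 0.9 with MAFF and 1165 with MAFG. FAM129A averaged 38.2 RPKM in arsenic trioxide and 4.18 RPKM in control libraries, and SMOX averaged 6.38 RPKM in arsenic trioxide and 1.96 RPKM in control libraries.

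**Figure D5:**
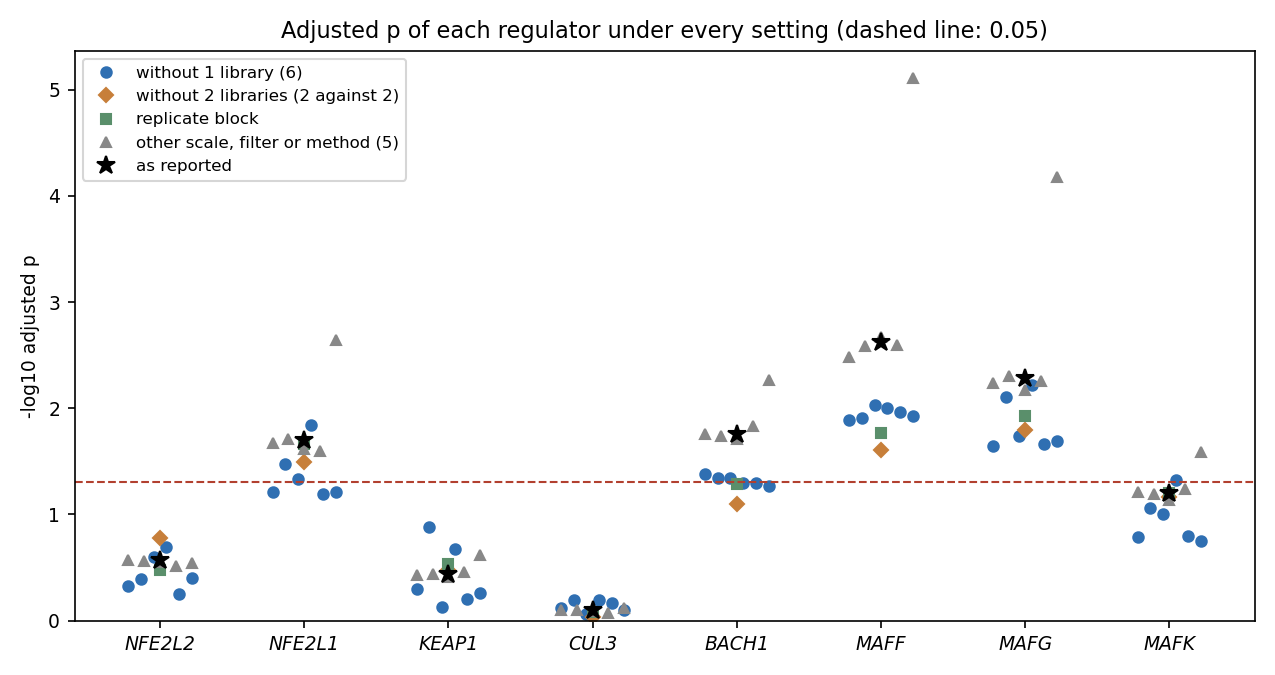
Minus log10 of the limma adjusted p (y axis) of each regulator as reported and under the 13 other settings, with the dashed line at 0.05. MAFF and MAFG lie above the line in every setting, NFE2L1 and BACH1 on both sides of it, and NFE2L2, KEAP1 and CUL3 below it.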

How the data were processed

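RNA of NB4 cells was depleted of ribosomal RNA before library preparation, per the labels' protocols. HISAT2 2.1.0, HTSeq, DESeq2 and the hg38 build are named, without roles, in the submitters' processing notes. Column names carry the tag rmdup, per the file headers. The deposited values are RPKM of 23858 genes in 6 libraries. The table also holds the authors' mean normalized signal, log2 fold change, its error and test score, and p-value, and only quoted values come from these, apart from the mean, which settled exon lengths. RPKM times GENCODE 29 exon length and 1 total per library gave whole reads, within 0.01, in all 6 libraries for 93.0% of genes, and for 99.9% once the mean was used. Because the file holds no counts, limma 3.58.1 (R 4.3.3) in trend mode tested log2(RPKM + 1) of genes averaging 1 RPKM or more, with treatment as the only term, and was checked on simulated reads. Samples were grouped by their treatment label.

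The members and lists were chosen with earlier results of these data known. All 8 members are named, as are both tested relatives, called partners (at most 6 a list by p), partners with a role to state, the 4 smallest p-values of NRF2 targets, overlapping genes and the 3 genes most like each of the 2 members with the smallest p. Some results that this rule or the marker lists would give are not reported here. No library is a copy of another of its group (chi-square over its degrees of freedom 5.48 to 13.5). Alternatives were pseudocounts, no filter, median-ratio factors, limma-voom, a replicate block and leaving out libraries.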

Additional observations from a re-analysis of the deposited data

How the results depend on the processing

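Under 13 other settings MAFF and MAFG stayed called, and NFE2L2, KEAP1 and CUL3 stayed uncalled. NFE2L1 lost its call in 3 settings and BACH1 in 5, and MAFK gained one in 2. The log2 fold change of CUL3 turned to 0.03 without arsenic trioxide replicate 3 and ran between -0.0800 and 0.0392 (without control replicate 3) with 1 library left out. Leaving out 1 library gave 2 to 4 regulators higher and 0 to 1 lower, and 7 to 9 partner genes higher and 5 to 8 lower. Limma-voom called 1 regulator lower. Without the 2 libraries that stood apart, 7 partner genes were higher and 6 lower. The difference in MAFF relative to MAFG turned to -0.0521 with 1 RPKM added, and that of NFE2L2 relative to KEAP1 ran between -0.188 and 0.0734 (without arsenic trioxide replicate 3) with 1 library left out. The main test did not use the replicate numbers as pairs, since the labels do not say that they pair cultures. Deviations of same-numbered libraries correlated at -0.0852, 0.148 and -0.0829, and those of differently numbered libraries at -0.158 to 0.221. With so few libraries these values cannot show whether cultures were paired. With the replicate block, 3 regulators were called higher (BACH1 at adjusted p = 0.0514), with 6 partner genes lower. The causes were not tested. Median-ratio factors were 0.988 to 1.025, and changed no member's call. The fewest reads among the 8 genes were those of MAFF, 46 to 58 in control libraries.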

Other observations

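MAFA, a large MAF gene that lay below the filter and was not tested, was at 0.0179 to 0.345 RPKM in arsenic trioxide and 0 to 0.0707 RPKM in control libraries. Its highest value was in arsenic trioxide replicate 3, 1 of the 2 libraries that stood apart on the second principal component. The other of these, control replicate 1, had its lowest value, 0 RPKM. Unlike MAFA, KEAP1, MAFG and SQSTM1 were each highest of their group in both of those libraries.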
